A study of Caenorhabditis elegans with 6 samples.

Results

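Genes of the mitochondrial respiratory chain and the ATP synthase were followed in Caenorhabditis elegans exposed to C-SPIONs, superparamagnetic particles of iron oxide in the nanometre range that carry a citrate coat. The genes were taken by symbol: those named nuo, ucr or cox with a number, together with lpd-5, cyc-1, isp-1, atp-1 to atp-5, asb-1, asb-2, asg-1, asg-2 and 1 more gene that enters the counts only. This gave 37 genes of the 25478 with a single symbol on the array, each with 1 transcript cluster (the probes standing for 1 transcribed locus). All 37 matched the RefSeq gene table of assembly WBcel235. Of 39 genes with such symbols in that table, nuo-3 and cox-16 had no row in the table of array values under these names. The genes once called cco-1 and cco-2 are listed as cox-5B and cox-5A.

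The respiratory chain sits in the inner mitochondrial membrane and passes electrons from NADH and succinate to oxygen through complexes I to IV, pumping protons as it does so. The ATP synthase lets the protons flow back and makes ATP. In C. elegans, mutation or knockdown of several of these genes (isp-1, nuo-6, cox-5B and others) is known to lengthen life span and to switch on a mitochondrial stress response, while mev-1 mutants are known to be short-lived and sensitive to oxidants. Complex I, complex III and the iron-sulphur subunit of complex II depend on iron-sulphur clusters, and complexes III and IV on haem.

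The animals were hermaphrodites of the wild-type strain N2, grown from synchronised L1 larvae on plates of Escherichia coli OP50 for 48 h to the L4 stage. They then spent 24 h at 20 °C in M9 buffer at 50%, without particles in 3 control samples or with 500 µg/mL of C-SPIONs in 3 exposed samples. Whole-animal RNA was hybridised to 1 array per sample. The samples are labelled L4, and the RNA was taken a day later: the yolk protein gene vit-2 was at 12.67 ± 0.22 and the adult cuticle collagen gene col-19 at 8.38 ± 0.66 in the controls (log2 signal, SD, n = 3).

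Signals are log2 values normalised between arrays, so each is relative to the other transcripts of its array. Precision is limited by there being 6 arrays. Between pairs of arrays, Pearson correlations across clusters ran from 0.935 to 0.968. C-SPION 1 was nearer to control 1 (0.959) than to C-SPION 2 (0.935) or C-SPION 3 (0.949). Over all 26192 clusters tested, limma called 0 at an adjusted p under 0.05 (0%), with a smallest adjusted p of 0.201. At an unadjusted p under 0.05 there were 1368 clusters higher and 1912 lower with C-SPIONs. Without C-SPION 1, 63 clusters were called, none of them among the 37 genes.

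Signals of the respiratory genes lay close together on the 6 arrays. The median difference, C-SPION minus control, was -0.01 on the log2 scale over the 37 genes and 0.04 over all clusters. The median size of the difference, whatever its sign, was 0.14 against 0.28 over all clusters, and the median residual SD of the fit was 0.18 against 0.34. All 37 genes had a mean signal above the median of all clusters, so all of them passed both filters on dim clusters. The clusters they are set against here include the dim ones. No comparison with clusters of like signal is given, so these values do not show that the 37 were steadier than other bright genes. There were 17 genes higher with C-SPIONs, 19 lower and 1, atp-5, at 0.00. In 28 of the 37 the difference was smaller than 0.25 in size.

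No gene of the 37 passed the limma test, with adjusted p from 0.339 upwards. At an unadjusted p under 0.05 the count was 1 gene higher, which is 2.7% of the 37 where all clusters gave 5.22%, and 0 lower where all clusters gave 7.30%. The 95% interval of the difference lay within -1 and 1, that is within a 2-fold change either way, for 33 of the 37 genes. Over all clusters, dim ones included, that share was 52.1%. The intervals of ucr-2.1, ucr-2.3, cox-11 and asb-2 reached past those bounds, the farthest being -1.06 for ucr-2.1 and 1.11 for ucr-2.3. The 3 arrays of each group lay apart in 3 genes that were higher (ucr-2.3, cox-15 and atp-1; 8.11%, with 9.40% of all clusters) and in 2 that were lower (ucr-2.1 and cox-6A; 5.41%, with 9.24% of all clusters). After quantile normalisation these counts were 4 (10.8%, with 9.16% of all clusters) and 1 (2.7%, with 9.79%). After median centring of the arrays they were 1 (2.7%, with 9.63%) and 0 (0%, with 6.5%). With 5 arrays the groups lay apart more often in all clusters too. Leaving out control 1 gave 9 lower genes (24.3%, with 14.3% of all clusters), leaving out control 3 gave 5 (13.5%, with 14.6%) and leaving out C-SPION 2 gave 5 (13.5%, with 13.8%). The higher count became 9 without control 2 (24.3%, with 14.5%) and 10 without C-SPION 1 (27%, with 20.5%).

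**Figure D1:**
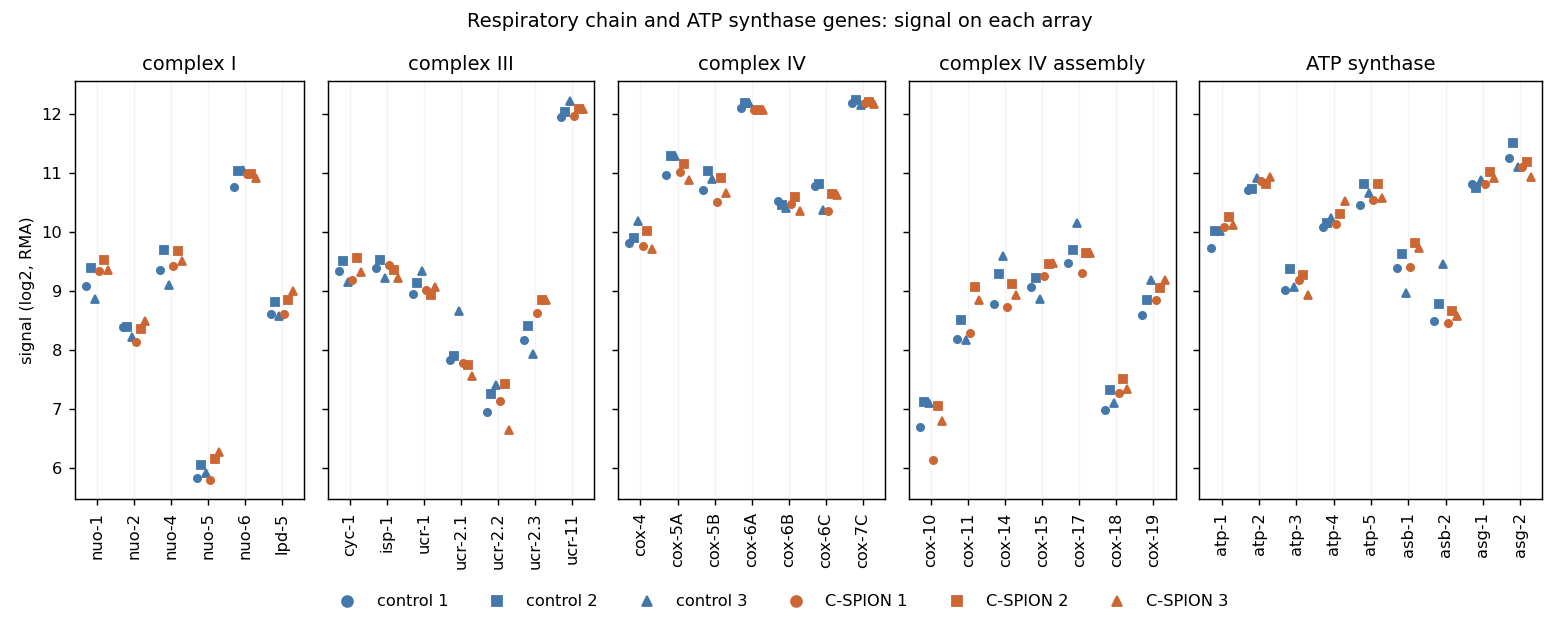
Log2 RMA signal (y axis) of 36 of the 37 genes (x axis), in panels by complex, on the 3 control arrays (blue) and the 3 C-SPION arrays (orange), with a marker shape for each replicate number. Most genes show overlapping groups; control 3 stands above the other arrays for ucr-2.1 (8.65) and asb-2 (9.45) and below them for asb-1 (8.96).

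Complex I takes electrons from NADH. Its 7 genes here had a median difference of 0.14, with 5 higher and 2 lower, and the groups overlapped in all 7. The median shrank to 0.040 when C-SPION 3 was left out, to 0.063 for control 3, to 0.085 for C-SPION 2 and to 0.09 for control 1, and grew to 0.21 when C-SPION 1 was left out. The gene with the smallest p was nuo-1, which encodes the subunit that binds NADH. Its signal was 9.08, 9.39 and 8.87 in controls 1 to 3 and 9.33, 9.52 and 9.36 in C-SPION 1 to 3. The highest control lay between the C-SPION values. The difference was 0.29 (95% interval -0.21 to 0.79; adjusted p = 0.603 by limma), and 0.17 without control 3, the lowest array.

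The next was lpd-5, the homologue of the accessory subunit NDUFS4. Its signal was 8.60, 8.81 and 8.57 in controls and 8.61, 8.85 and 9.0 with C-SPIONs, a difference of 0.16 (95% interval -0.32 to 0.64). The group means of nuo-5, the iron-sulphur subunit homologous to NDUFS1, were 5.92 ± 0.11 and 6.06 ± 0.25 (SD, n = 3 each), a difference of 0.14. The NDUFA10 homologue nuo-4 stood at 9.38 ± 0.30 and 9.53 ± 0.13, a difference of 0.15 that fell to 0.01 without control 3.

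The groups differed by -0.01 for nuo-2 and 0.01 for nuo-6. The NDUFS3 homologue nuo-2 was at 8.33 ± 0.10 and 8.32 ± 0.18. The NDUFB4 homologue nuo-6, whose mutation is known to extend life span, was at 10.95 ± 0.16 and 10.96 ± 0.04, with an interval of -0.43 to 0.46.

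Complex III passes electrons from ubiquinol to cytochrome c. It held both the highest and the lowest of all 37 differences, and both belonged to genes of its core protein 2. The ucr-2.3 signal was 8.16, 8.41 and 7.93 in controls 1 to 3 and 8.63, 8.85 and 8.85 in C-SPION 1 to 3. All 3 exposed arrays lay above all 3 controls. The difference was 0.61, or 1.53-fold higher (95% interval 0.11 to 1.11), and it was the only one of the 37 with an unadjusted p under 0.05 (0.0225, with adjusted p = 0.339 by limma). Leaving out control 1, control 3, C-SPION 2 or C-SPION 3 brought the number of genes at that level to 0, and leaving out C-SPION 1 brought it to 2, where 7.51% of all clusters were higher at that level; the ucr-2.3 difference itself ran from 0.49 to 0.73.

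The ucr-2.1 signal was 7.82, 7.89 and 8.65 in controls and 7.77, 7.74 and 7.56 with C-SPIONs. The exposed arrays lay below the controls, by 0.05 between the nearest arrays, and control 3 stood well above the rest. The difference was -0.43 (95% interval -1.06 to 0.20; adjusted p = 0.541 by limma) and -0.17 without control 3. The third core protein 2 gene, ucr-2.2, was at 7.20 ± 0.23 and 7.06 ± 0.39, a difference of -0.14 with overlapping groups.

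The other 4 genes of complex III differed by less than the spread between replicates. The Rieske iron-sulphur protein gene isp-1, whose mutant is long-lived, was at 9.38, 9.52 and 9.22 in controls and 9.44, 9.36 and 9.21 with C-SPIONs. That is a difference of -0.04 (95% interval -0.49 to 0.42). Cytochrome c1, the haem subunit encoded by cyc-1, was at 9.33 ± 0.18 and 9.35 ± 0.19. The core protein 1 gene ucr-1 stood at -0.14 and the small subunit gene ucr-11 at -0.03.

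Complex IV, cytochrome c oxidase, hands the electrons to oxygen. Its 7 nuclear subunit genes had differences from -0.19 to 0.02, the narrowest range of any complex here, with a median of -0.11 and 6 of 7 lower. Median centring of the arrays brought this median to -0.0367. The largest difference was that of cox-5B, much used in knockdown work on life span. Its signal was 10.71, 11.04 and 10.90 in controls and 10.51, 10.92 and 10.66 with C-SPIONs, overlapping throughout, a difference of -0.19 (95% interval -0.68 to 0.31; adjusted p = 0.741 by limma). Its partner cox-5A was at 11.18 ± 0.18 and 11.02 ± 0.14, a difference of -0.16.

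The groups lay apart for cox-6A. Its signal was 12.19 in controls 2 and 3, lower in control 1 (mean of the controls 12.16 ± 0.05) and 12.07 on each C-SPION array. Control 1 lay 0.03 above the exposed arrays. The groups gave a difference of -0.09 (95% interval -0.50 to 0.32). The steadiest gene of the complex was cox-7C, between 12.16 and 12.24 on all 6 arrays. The genes cox-4 and cox-6C stood at -0.13 and -0.11, and cox-6B at 0.02.

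The assembly factors of complex IV are named for yeast genes, several of which serve to supply it with haem or copper. The mean signals of these 7 genes ran from 6.8 to 9.7, against 9.9 to 12.2 for the complex IV subunits. Their median residual SD was 0.28 against 0.16. Their 7 differences spread more widely, from -0.31 to 0.44, with 4 higher and 3 lower and a median of 0.14. Dropping control 1 took that median to 0 and dropping C-SPION 3 took it to 0.063, while it stood at 0.22 when control 3 was dropped and at 0.23 when C-SPION 1 was. The gene with the smallest p was cox-15, which in yeast is needed to make haem A. Its signal was 9.06, 9.21 and 8.87 in controls and 9.25, 9.46 and 9.47 with C-SPIONs. The groups lay apart by 0.04, and the difference was 0.35 (95% interval -0.12 to 0.81; adjusted p = 0.503 by limma). The copper-delivery factor cox-11 was at 8.19, 8.51 and 8.16 in controls and 8.28, 9.06 and 8.84 with C-SPIONs. There C-SPION 1 lay among the controls and the other exposed arrays above them. Its difference was 0.44 (95% interval -0.17 to 1.05; adjusted p = 0.518 by limma), and 0.66 without C-SPION 1.

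Not all haem and copper factors stood on the same side. The haem O synthase gene cox-10, which in yeast acts just before cox-15, was at 6.68, 7.11 and 7.10 in controls and 6.12, 7.05 and 6.79 with C-SPIONs. Its difference of -0.31 (95% interval -0.996 to 0.38) rested on C-SPION 1 and was -0.04 without it. The copper chaperone gene cox-17 stood at -0.24, and at -0.05 without control 3, and cox-14 at -0.29, and at -0.10 without control 3. The membrane insertion factor cox-18 was at 0.24 and cox-19 at 0.14.

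The ATP synthase genes had a median difference of 0.09, with 5 of 9 higher, 3 lower and 1 at 0.00. That median ran from 0.052 without C-SPION 2 to 0.13 without control 3. The gene of the alpha subunit of the F1 head, atp-1, was at 9.72, 10.02 and 10.02 in controls and 10.08, 10.25 and 10.12 with C-SPIONs. The exposed arrays all lay above the controls, by 0.06 between the nearest. The difference was 0.23 (95% interval -0.23 to 0.69; adjusted p = 0.653 by limma). The gene of the beta subunit, atp-2, which carries the catalytic sites, was at 10.79 ± 0.11 and 10.87 ± 0.06, a difference of 0.09 (95% interval -0.34 to 0.52). In the stalk, atp-3 stood at -0.02, atp-4 at 0.16 and atp-5 at 0.00, with overlapping groups.

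**Figure D2:**
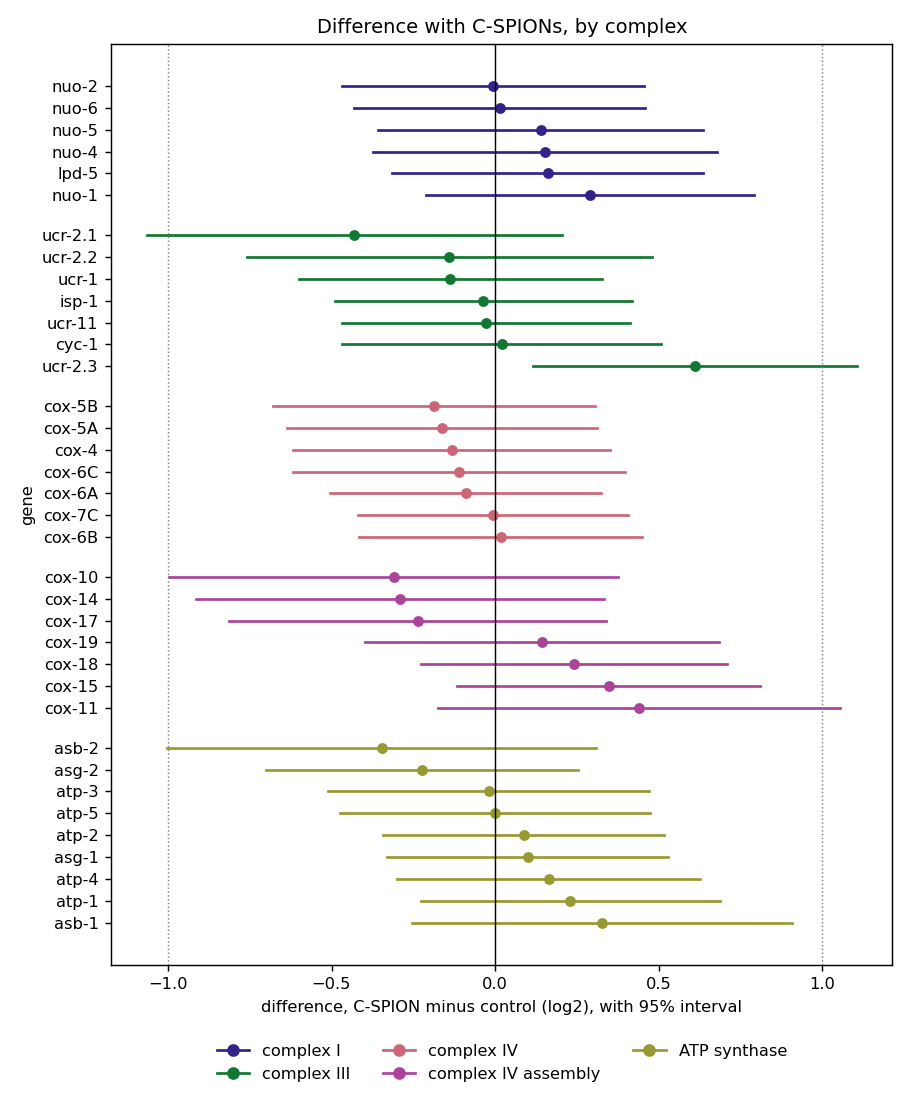
Difference in log2 signal, C-SPION minus control (x axis), for 36 of the 37 genes (y axis), ordered within complexes; points are limma estimates from 3 arrays against 3 and lines are 95% intervals. Dotted lines mark a 2-fold change either way; the interval of ucr-2.3 (0.11 to 1.11) is the only one drawn that leaves out 0.

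Several respiratory subunits of C. elegans are encoded by related genes, and 7 pairs of such genes, 6 of them described here, were compared by the log2 ratio of their signals on each array, which shows whether the signals of a pair differed unequally between groups. Probe sequences were not used here, so how far the probes of a gene also take up RNA of its relative is not known for any pair below. The b subunit of the ATP synthase stalk is encoded by asb-1, known in C. elegans as the germ line form, and asb-2, the form of the body. The asb-1 signal was 9.39, 9.62 and 8.96 in controls and 9.40, 9.82 and 9.73 with C-SPIONs, a difference of 0.33 (95% interval -0.25 to 0.91). The asb-2 signal was 8.49, 8.78 and 9.45 in controls and 8.46, 8.65 and 8.57 with C-SPIONs, a difference of -0.35 (95% interval -1.003 to 0.31). Control 3 was the lowest of the 6 arrays for asb-1 and the highest for asb-2.

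The log2 ratio of asb-1 to asb-2 was 0.90, 0.84 and -0.49 in controls and 0.94, 1.17 and 1.16 with C-SPIONs. The groups lay apart, by 0.04 between the nearest arrays. The ratio was higher by 0.67 with C-SPIONs (exact two-sided permutation p = 0.1, the smallest that 3 against 3 arrays allow; 0.233 adjusted over the 7 pairs compared), and by 0.22 without control 3.

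Complex II, succinate dehydrogenase, has a pair of flavoprotein genes, outside the 37. The sdha-2 signal was 8.03, 8.11 and 7.37 in controls and 8.52, 8.71 and 8.53 with C-SPIONs, a difference of 0.75 (95% interval 0.16 to 1.34; adjusted p = 0.337 by limma), while sdha-1 stood at -0.29. Their log2 ratio, sdha-1 to sdha-2, was -0.68, -0.48 and 0.17 in controls and -1.52, -1.16 and -1.42 with C-SPIONs. It was lower by 1.04 (exact permutation p = 0.1; 0.233 adjusted over the 7 pairs), with the groups apart, and by 0.79 without control 3.

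Of the mobile carrier cytochrome c, the gene cyc-2.1 was steady at 11.90 ± 0.16 and 11.96 ± 0.06. The second gene, cyc-2.2, was at 5.01, 5.73 and 5.65 in controls and 5.85, 7.70 and 6.71 with C-SPIONs, a difference of 1.29 (95% interval 0.18 to 2.40; adjusted p = 0.356 by limma), and 0.82 without C-SPION 2. The exposed arrays lay above the controls for cyc-2.2, but their ratio overlapped (exact permutation p = 0.2, 0.28 adjusted). Ratios also overlapped for 3 more pairs: asg-1 to asg-2, genes of the g subunit, at 0.32 (exact permutation p = 0.2, 0.28 adjusted), the inhibitor genes mai-1 to mai-2 at 0.48 (exact permutation p = 0.4, and 0.4 adjusted), and the ADP/ATP carrier genes ant-1.1 to ant-1.2 at 0.58 (the same p). Leaving out 1 array moved these ratios: asg-1 to asg-2 was at 0.18 without control 2, mai-1 to mai-2 at 0.26 without control 2, 0.29 without control 1 and 0.89 without control 3, and ant-1.1 to ant-1.2 at 0.17 without control 1, 0.37 without C-SPION 3 and 0.94 without control 2. The ant-1.2 signal was dim, with means of 4.91 in controls and 4.29 with C-SPIONs. The ratio of ucr-2.3 to ucr-2.1 was 0.34, 0.52 and -0.72 in controls and 0.86, 1.11 and 1.29 with C-SPIONs. The difference was 1.04, and 0.66 without control 3. The ratio of ucr-2.3 to ucr-2.2 was higher by 0.75, and by 0.50 without C-SPION 3. Both of these ucr-2 pairs were picked after their values were seen and were not tested.

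**Figure D3:**
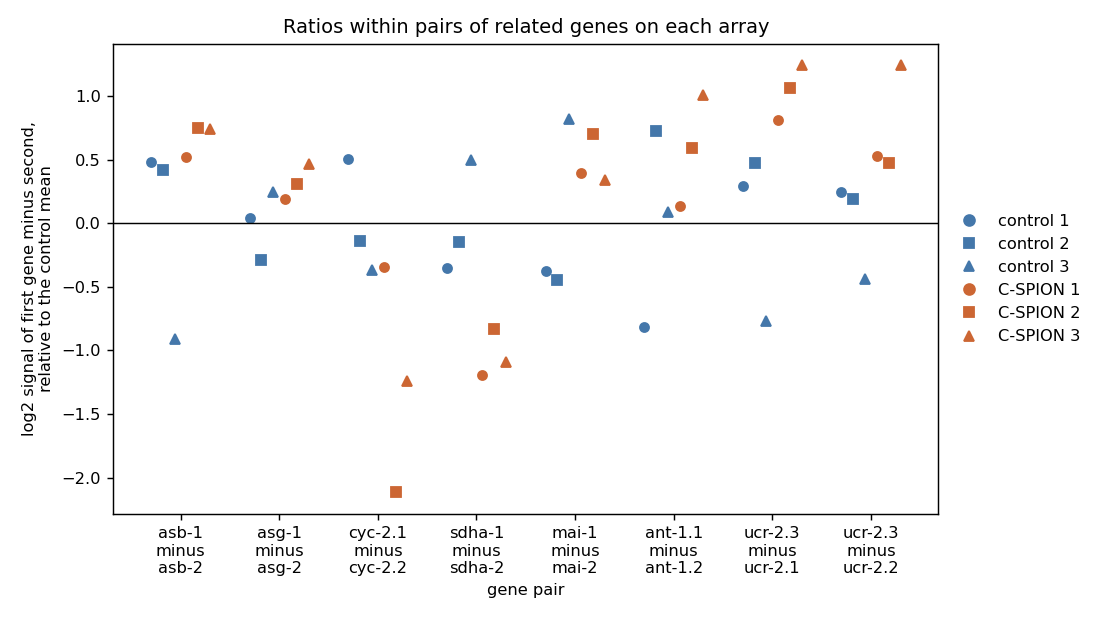
Log2 signal of the first gene minus that of the second (y axis, relative to the control mean) for 8 pairs of related genes (x axis) on the 3 control (blue) and 3 C-SPION (orange) arrays. The groups lie apart for asb-1 to asb-2, sdha-1 to sdha-2 and both ucr-2 pairs. The ucr-2 pairs were picked after their values were seen and were not tested. Control 3 stands away from the other controls for asb-1 to asb-2 and for ucr-2.3 to ucr-2.1.

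Of the tissue markers 0 passed the limma test, while the mean signals of some lists lay apart between the groups. All 14 germ line markers were higher with C-SPIONs, 8 at an unadjusted p under 0.05 (5.22% of all clusters). Their mean log2 signal ranged from 6.61 to 7.45 in controls and from 7.72 to 8.02 with C-SPIONs. The 14 oocyte markers were all higher too, with means of 7.11 to 7.76 and 8.07 to 8.42. Of 8 sperm markers 6 were higher, with means of 4.11 to 4.25 and 4.45 to 4.82. These means were dim, below the median signal of all clusters, 5.05. The largest differences were those of spe-11, at 1.33, and gsp-3, at 1.12, while spe-9 and spe-38 were lower, at -0.22 and -0.54. Neuron markers were lower in 13 of 13, with means of 6.79 to 7.53 in controls and 6.14 to 6.64 with C-SPIONs, and muscle markers in 11 of 12, with means of 7.98 to 8.45 and 7.47 to 7.75. The groups overlapped for the other lists. Intestine markers were divided, 5 higher and 6 lower, with means of 8.40 to 8.72 in controls and 8.12 to 8.47 with C-SPIONs. Hypodermis markers were higher in 6 of 8, with means of 6.14 to 6.52 and 6.44 to 6.59.

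In whole animals, fewer cells of a type, less RNA per cell and a larger share of RNA from other tissues cannot be told apart. Each signal is relative to the other transcripts of its array. Control 3 had the lowest germ line mean, at 6.61, beside 7.42 and 7.45 in the other controls. It was also the lowest control for oocyte markers (7.11, beside 7.76 and 7.72) and neuron markers (6.79, beside 7.21 and 7.53). Muscle and intestine markers had their lowest control mean there too. Hypodermis markers (6.52, beside 6.14 and 6.16) and sperm markers had their highest. Of the 37 respiratory genes, control 3 was the lowest of the 6 arrays for 10, among them asb-1, ucr-2.3, cox-15 and nuo-1, and the highest for 9, among them asb-2, ucr-2.1, cox-14 and cox-17. No other array was an extreme for more than 14 of the genes. How often each array was an extreme over all clusters is not given here. The part of the germ line or of other tissues in these differences was not tested. Relative to the control mean, the means of all 5 gene groups lay between -0.22 and 0.23 on every array. Germ line markers ran from -0.55 to 0.86 and neuron markers from -1.04 to 0.36. Hypodermis markers, from -0.13 to 0.32, and intestine markers, from -0.44 to 0.15, moved less than those lists. A mean over a group also hides members that differ in opposite directions, such as ucr-2.3 and ucr-2.1.

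**Figure D4:**
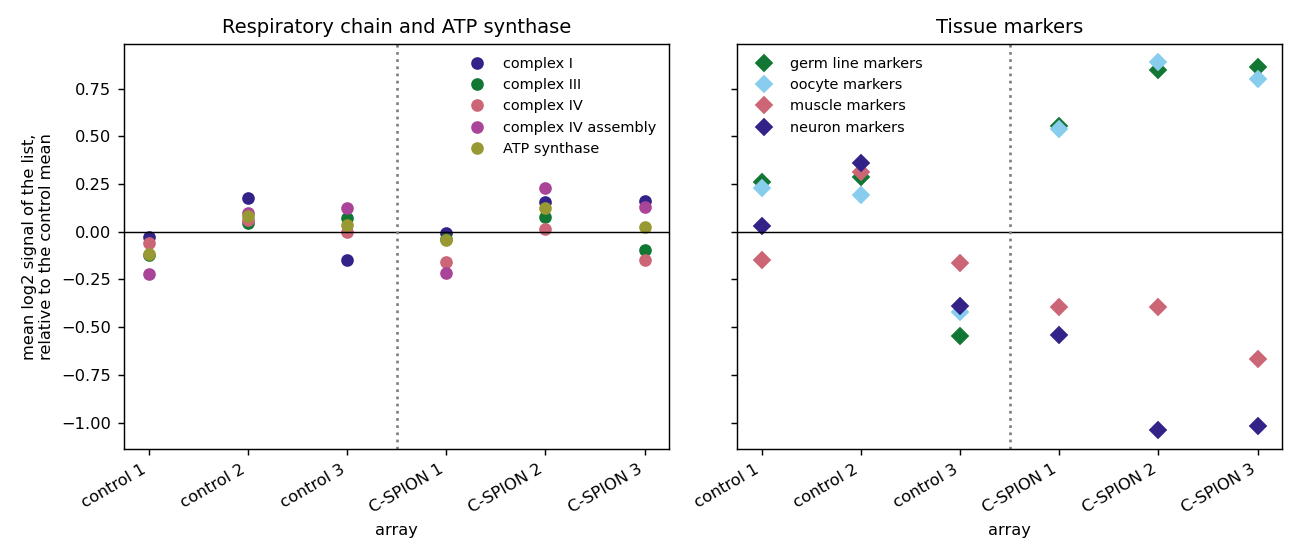
Mean log2 signal of each gene group relative to its control mean (y axis) on the 6 arrays (x axis), for the complexes (left; 7, 7, 7, 7 and 9 genes) and for tissue markers (right; 14 germ line, 14 oocyte, 12 muscle and 13 neuron genes). The complexes stay between -0.22 and 0.23, whereas germ line markers reach 0.86 and neuron markers -1.04 with C-SPIONs. Sperm, intestine and hypodermis markers are not drawn.

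Of the further genes of the pathway, listed by name, 0 passed the limma test. The other complex II genes were close to 0, with mev-1, the cytochrome b subunit known for its oxidant-sensitive mutant, at 0.04, sdhb-1 at 0.00 and sdhd-1 at 0.11. Of the 10 carrier genes for cytochrome c and ubiquinone synthesis, 7 were higher and 3 lower, with a median of 0.06. The hydroxylase gene clk-1, whose mutant is long-lived, was at 9.19, 9.46 and 9.93 in controls and 9.24, 9.43 and 9.30 with C-SPIONs, a difference of -0.20 that was near 0 without control 3.

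Of 17 nuclear subunit genes under other names, 10 were higher and 7 lower, with a median of 0.03. Of these, 1 had an unadjusted p under 0.05, as had 12.5% of all clusters in either direction. The 25 complex I genes named ndu had a median of -0.02, with 10 higher and 15 lower. That list was added after the values were seen and shares genes with the 17. Among 5 other assembly factors the copper factor gene sco-1 had the smallest p. Its signal was 8.03, 8.0 and 7.18 in controls and 8.14, 8.24 and 8.59 with C-SPIONs, a difference of 0.59 (95% interval -0.10 to 1.27; adjusted p = 0.449 by limma), and 0.31 without control 3. The ADP/ATP carrier gene ant-1.2 led its list at -0.62 with overlapping groups, at -0.33 without control 1 and at -1.07 without control 2. It was dim, at 4.91 ± 0.79 in controls and 4.29 ± 0.41 with C-SPIONs, where the median signal of all clusters was 5.05. The 12 genes of the mitochondrial genome had no row under their symbols and were not analysed here.

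Loss of respiratory subunits is known to switch on mitochondrial chaperone genes in C. elegans, so 7 genes of that response were set beside the 37. The chaperonin gene hsp-60 was at 8.68, 8.83 and 8.04 in controls and 9.44, 9.32 and 9.43 with C-SPIONs. The exposed arrays all lay above the controls. The difference was 0.88, or 1.84-fold (95% interval 0.28 to 1.48; adjusted p = 0.303 by limma), and 0.64 without control 3. The mitochondrial HSP70 gene hsp-6 was at 9.67 ± 0.23 and 9.87 ± 0.04, a difference of 0.20 with an interval of -0.28 to 0.67. The transcription factor gene atfs-1, which drives the response, was at 0.04, dve-1 at -0.33 and the protease gene clpp-1 at 0.12. Over the 7 genes 5 were higher and 2 lower, with 1 at an unadjusted p under 0.05 (12.5% of all clusters in either direction).

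By position in assembly WBcel235, few of the 37 genes lay beside another gene of the pathway. Within 3 steps among protein-coding genes, cox-6B lay next to nduc-2 and isp-1 near ndub-11, both complex I genes. In these neighbours the differences were 0.02 and 0.01 for cox-6B and nduc-2, and -0.04 and -0.09 for isp-1 and ndub-11.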

How the data were processed

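RNA of whole animals was put on 6 Affymetrix arrays, 3 per group; groups and replicate numbers come from the sample titles (control 3 repeats the source name of control 2). The labels' protocols give extraction with Trizol and beads of 0.5 mm and amplification of 200 ng into cDNA with biotin. The authors deposited log2 signals with 2 decimals. The submitters' processing notes name RMA, which corrects background, normalises between arrays and summarises probes, and Affymetrix Expression Console; their versions, like the genome build, are not stated there. Detection calls were not used, so signal over background is unknown.

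Of 29317 clusters, 25546 have 1 symbol, 646 several and 3125 none; the 26192 with a symbol were tested. The fit used limma 3.58.1 under R 4.3.3 (lmFit, eBayes; only the group in the model; two-sided; Benjamini-Hochberg over all clusters; threshold 0.05) and was tested on simulated data. Differences are C-SPION minus control, and values within 0.005 of 0 count as neither higher nor lower. No label says that the samples of a group are separate cultures. P-values therefore cover the spread among these samples only, and that spread may be technical. Gene pairs were compared by an exact permutation test of their log2 ratio over arrays.

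The members and lists were chosen with earlier results of these data known. All members but 1 were described; results of 1 pair of genes are not reported here. Other genes were named as pair partners, as the gene of smallest p in a list, as genes known from life span work, or as examples picked after their values were seen. Results were recomputed with the replicate number as a block, without each array, after quantile normalisation or median centring, with filters on dim clusters, on all clusters, with trended robust eBayes, with array weights, with the mean over a gene's rows and at a threshold of 0.01.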

Additional observations from a re-analysis of the deposited data

How the results depend on the processing

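In all 16 alternatives 0 of the 37 genes passed at an adjusted p under 0.05. Samples with the same replicate number share only that number: their deviations from the group means correlated at 0.22, 0.20 and 0.01, and 4 of 6 arrays correlated best with their own number. With the replicate block the median over members was -0.01, 1 gene was higher at an unadjusted p under 0.05 and 0 clusters passed. At a threshold of 0.01 that 1 gene became 0. Leaving out an array gave 0 to 2 genes higher at that p, 3 to 10 genes higher and 2 to 9 lower with groups apart (over all clusters 2.81% to 7.51% were higher at that p, and 13% to 20.5% were higher and 12.2% to 15.8% lower with groups apart), 0 to 63 clusters called, and medians over members of -0.04 to 0.06. Quantile normalisation left 1 gene lower with groups apart (9.79% of all clusters). Median centring left 1 higher and 0 lower (9.63% and 6.5% of all clusters) and put the complex IV median at -0.0367.

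Of 48 genes followed, 12 turned sign in some setting, 9 of them members, none with a reported difference above 0.14 in size. Leaving out an array, the ranges were -0.0867 to 0.0883 for nuo-2, -0.0817 to 0.0633 for nuo-6, -0.113 to 0.0367 for isp-1, -0.025 to 0.015 for cox-7C, -0.09 to 0.09 for atp-3, -0.08 to 0.105 for cyc-1, -0.085 to 0.05 for ucr-11, -0.04 to 0.075 for cox-6B, -0.0333 to 0.122 for cyc-2.1, -0.16 to 0.16 for ant-1.1, -0.025 to 0.11 for mev-1 and -0.315 to 0.07 for ucr-2.2. Median centring gave nuo-2 0.0667, isp-1 0.0367, ucr-11 0.0467, cox-7C 0.0667, atp-3 0.0533 and ant-1.1 0.03. Array weights gave nuo-2 0.0333, cyc-1 -0.0114, ucr-11 0.0358, cox-6B -0.0331, cyc-2.1 -0.000369, ant-1.1 0.0871 and mev-1 -0.0211. The cause was not tested. No pair ratio turned sign when an array was left out, after quantile normalisation or with the mean over rows.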
